A study of Homo sapiens with 16 samples.

Results

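The genes described here are the EGF family ligands AREG, EREG, HBEGF, TGFA and BTC, the receptors EGFR, ERBB2 and ERBB3, and the membrane proteases ADAM17 and ADAM10 that release the ligands. These 10 genes, of 67938 gene identifiers in the deposited tables, were taken by symbol. They were chosen by measured values, because AREG fell in HepG2 and the nucleus to cytoplasm ratio of ADAM17 RNA rose in both lines. Values of those comparisons are therefore given below as descriptions without tests. Line differences of the siRNA effect are tested below, but those tests are not independent of this choice. The study asked how PANAD, the protein encoded by C7orf25, acts together with the RNA export receptor NXF1 on nuclear export of CDK6 mRNA and on entry into S phase. RNA from nuclear and cytoplasmic fractions of 2 liver cancer lines was sequenced 48 h after transfection. SNU-449 is a hepatocellular carcinoma line with mesenchymal traits, and HepG2 is a hepatoblastoma-derived line with hepatocyte traits. In each line and fraction, cells given siPANAD-1 together with siPANAD-2 (called siPANAD below) were set against cells given NC. The 8 groups had 2 biological replicates each, 16 libraries in all, and no label gives replicates a shared day or batch. Because both siRNAs were mixed, their effects cannot be told apart.

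The ligands are made as membrane-anchored precursors, and proteases cut them near the cell surface to free the active factor. ADAM17 is the main sheddase of amphiregulin (AREG), epiregulin (EREG), heparin-binding EGF-like growth factor (HBEGF) and transforming growth factor alpha (TGFA), while ADAM10 is the main sheddase of betacellulin (BTC). All of these ligands bind EGFR, which pairs with ERBB2, a kinase with no known ligand of its own, or with ERBB3, a weak kinase that recruits PI3-kinase. In liver this pathway is known for its part in hepatocyte proliferation and regeneration, and several of the ligands are induced by the signalling they start.

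Total counts per library ranged between 16238235 and 30321908, with the HepG2 cytoplasm NC replicate 2 library highest and the next at 19498081. A limit of 3 counts corresponded to 0.0989 to 0.185 CPM (counts scaled to library total), which covers counting error only, since copies made by PCR could not be separated. Levels below are CPM scaled by the trimmed mean of M values (TMM), which sets each gene against the typical gene of its library and does not give amounts per cell. The targeted gene C7orf25 had 0 to 4 counts in siPANAD libraries and 0 to 7 in NC libraries, too few to check the knockdown. The nuclear RNA MALAT1 lay between 370.2 and 634 CPM in nuclear libraries and between 2.21 and 5.84 CPM in cytoplasmic libraries. GAPDH, ACTB and EEF1A1, taken as cytoplasmic mRNAs, separated the fractions less than MALAT1 did. Their summed CPM with NC was 12670 to 13020 in the SNU-449 nucleus and 13770 to 14400 in the cytoplasm. With siPANAD it was 8076 to 8544 and 14990 to 15590. In HepG2 it was 6883 to 6967 and 23550 to 26330 with NC, and 5666 to 5787 and 32800 to 33380 with siPANAD. How far the separation of fractions shaped the ratios was not tested. Marker levels here are CPM before TMM. In SNU-449, 8 of 8 mesenchymal markers reached 1 CPM, but 2 to 3 of 9 hepatocyte markers did too, with APOB at 0 and FGB at 16.3 to 272.4 CPM. In HepG2, 9 of 9 hepatocyte markers reached 1 CPM, and 4 to 5 of 8 mesenchymal markers did, with TWIST1 at 0 and FN1 at 1111 to 7314 CPM. Replicates differed by more than sampling noise in every group, and the chi-square divided by its degrees of freedom was 33.0 for the HepG2 cytoplasm NC pair against 4.48 to 12.3 for the other 7 pairs. Without any 1 HepG2 library, the HepG2 cytoplasm log2 fold change stayed between -2.95 and -2.76 for AREG and between -2.84 and -2.58 for ADAM17. For HBEGF it ranged between -3.34 and -2.49. EGFR (-0.24 to 0.0119) and ERBB2 (-0.23 to 0.14) changed sign without the HepG2 cytoplasm NC replicate 1 library. The other members fitted there stayed below 0.

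In SNU-449 cells, the transcripts of 4 ligands and of ADAM10 were lower in the cytoplasm after siPANAD, while EGFR was not detectably changed there. HBEGF was lowered 2.67-fold, TGFA 2.29-fold, EREG 2.05-fold, AREG 2.01-fold and ADAM10 1.96-fold. ERBB2 was lowered 1.34-fold. Of the 9 members other than ADAM17, 6 fell, 0 rose and 3 did not pass the test, which was the edgeR quasi-likelihood F-test with Benjamini-Hochberg adjustment over all genes at 0.05. Of all 17895 genes tested in that contrast, 20.1% were lower and 19.6% higher, 39.7% in all. The median log2 fold change was -0.97 over those 9 members and 0.04 over all genes. In bulk RNA, fewer cells with a transcript and less of it per cell cannot be told apart.

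HBEGF, a ligand of EGFR and ERBB4 that is also the diphtheria toxin receptor, had 26.2 and 23.4 CPM in SNU-449 cytoplasm with siPANAD, against 62.0 and 70.4 CPM with NC. Its gene lies on chromosome 5 at 140332843 to 140346631, minus strand (GENCODE 29, GRCh38, the source of all gene positions here). The groups did not overlap (log2 fold change -1.42, SE 0.11, edgeR adjusted p = 5.95e-13). HBEGF also fell in the SNU-449 nucleus, with 54.8 and 51.6 CPM with siPANAD against 83.8 and 93.4 CPM with NC (log2 fold change -0.74, SE 0.10, edgeR adjusted p = 1.63e-07). HBEGF thus passed the test in both fractions of SNU-449.

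EREG, a ligand of EGFR and ERBB4, had 22.7 and 26.5 CPM in SNU-449 cytoplasm with siPANAD, against 50.6 and 50.5 CPM with NC. Both siPANAD libraries lay below both NC libraries (log2 fold change -1.04, SE 0.12, edgeR adjusted p = 7.13e-09). In the nucleus EREG had 27.9 and 34.6 CPM with siPANAD against 37.6 and 36.7 CPM with NC, and did not pass the test (log2 fold change -0.25, SE 0.11, edgeR adjusted p = 0.0695). Without the SNU-449 nucleus siPANAD replicate 2 library that value was -0.42, with an adjusted p of 0.0243, and the adjusted p ranged between 0.0243 and 0.586 over all alternatives.

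AREG was scarce in SNU-449, where its 2 cytoplasmic siPANAD libraries had 2.48 and 2.22 CPM, against 4.62 and 4.82 CPM with NC. The groups stood apart (log2 fold change -1.01, SE 0.24, edgeR adjusted p = 0.000866). In the nucleus the siPANAD libraries had 2.14 and 2.67 CPM and the NC libraries 2.71 and 2.60 CPM, and these overlapped (log2 fold change -0.14, SE 0.22, edgeR adjusted p = 0.627). TGFA, an EGFR ligand encoded on chromosome 2 at 70447280 to 70554193, minus strand, had 5.73 and 5.36 CPM in the cytoplasm with siPANAD, against 10.6 and 14.8 CPM with NC. The cytoplasmic groups did not overlap (log2 fold change -1.20, SE 0.19, edgeR adjusted p = 2.77e-06). TGFA in the nucleus had 2.65 and 3.14 CPM with siPANAD and 3.79 and 2.98 CPM with NC, which overlapped (log2 fold change -0.22, SE 0.21, edgeR adjusted p = 0.408).

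BTC, a ligand of EGFR and ERBB4, had 1.55 and 1.502 CPM with siPANAD and 1.83 and 1.35 CPM with NC in SNU-449 cytoplasm, an overlapping pair of groups. Its log2 fold change was -0.06 (SE 0.33, edgeR adjusted p = 0.929), with a 95% interval of -0.71 to 0.60. In the nucleus BTC had 1.24 and 1.31 CPM with siPANAD and 1.55 and 1.41 CPM with NC (log2 fold change -0.21, SE 0.28, edgeR adjusted p = 0.577). At this depth the data do not separate a moderate change of BTC in either direction from none.

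The 3 receptor genes gave 3 different patterns in SNU-449. EGFR, on chromosome 7 at 55019021 to 55211628, plus strand, had 131.7 and 126.8 CPM in the nucleus with siPANAD, against 174.1 and 163.7 CPM with NC. It fell there without overlap (log2 fold change -0.39, SE 0.09, edgeR adjusted p = 0.000498). In the cytoplasm EGFR had 75.2 and 72.2 CPM with siPANAD and 70.0 and 68.3 CPM with NC, and its change did not pass the test (log2 fold change 0.09, 95% interval -0.09 to 0.28, edgeR adjusted p = 0.469).

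ERBB2, on chromosome 17 at 39687914 to 39730426, plus strand, had the opposite distribution over the fractions. Its cytoplasmic libraries had 172.7 and 159.4 CPM with siPANAD, against 212.5 and 232.4 CPM with NC (log2 fold change -0.42, SE 0.09, edgeR adjusted p = 0.000241). In the nucleus ERBB2 had 201.9 and 205.2 CPM with siPANAD and 213.2 and 205.6 CPM with NC, close to each other though not overlapping (log2 fold change -0.04, 95% interval -0.21 to 0.13, edgeR adjusted p = 0.737).

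ERBB3, on chromosome 12 at 56076799 to 56103505, plus strand, was the 1 member that rose in the SNU-449 nucleus. It had 19.2 and 17.8 CPM there with siPANAD, against 12.6 and 10.3 CPM with NC (log2 fold change 0.69, SE 0.13, edgeR adjusted p = 2.71e-05). In the cytoplasm ERBB3 had 34.6 and 35.9 CPM with siPANAD and 40.1 and 37.4 CPM with NC, and did not pass the test (log2 fold change -0.14, SE 0.12, edgeR adjusted p = 0.387).

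ADAM10, on chromosome 15 at 58588807 to 58749978, minus strand, fell by nearly the same amount in both SNU-449 fractions. Its nuclear libraries had 61.2 and 61.8 CPM with siPANAD, against 130.2 and 109.8 CPM with NC (log2 fold change -0.96, SE 0.11, edgeR adjusted p = 1.46e-07). Its cytoplasmic libraries had 37.8 and 43.6 CPM with siPANAD, against 91.6 and 68.1 CPM with NC (log2 fold change -0.97, SE 0.12, edgeR adjusted p = 4e-07). Neither pair of groups overlapped. In the nucleus of SNU-449, HBEGF, EGFR and ADAM10 fell and ERBB3 rose among the 9 members other than ADAM17, and 5 did not pass the test. Of all genes tested, 46% passed in the nucleus, 23.9% lower and 22.1% higher, so that the nuclear count lay near the background.

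**Figure D1:**
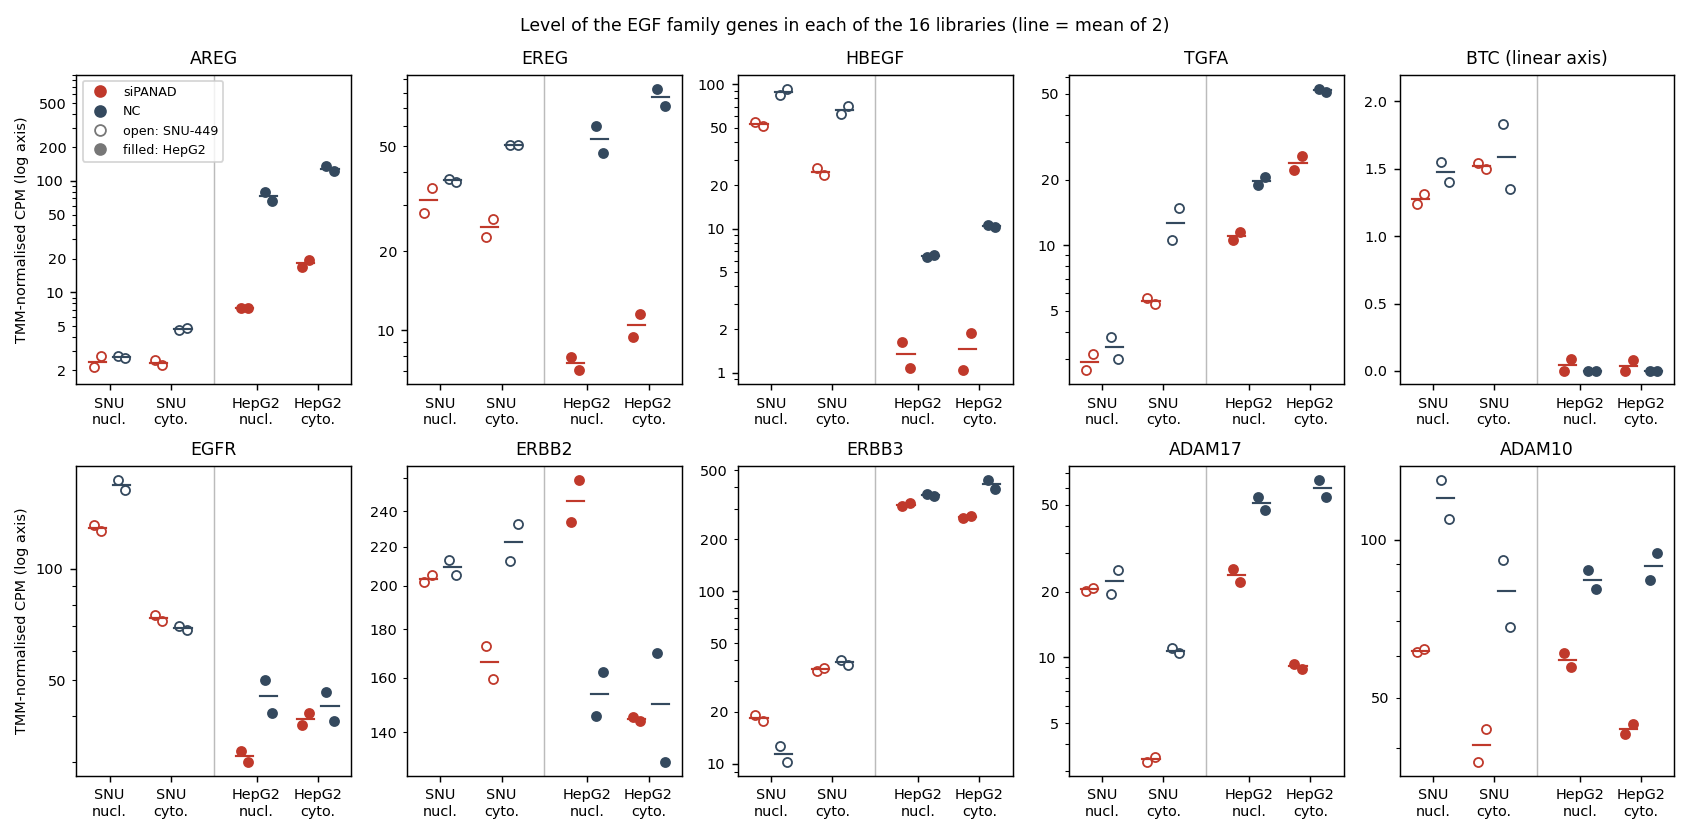
TMM-normalised CPM of each member in each library, on a log axis except for BTC, which has a linear axis. Red points are siPANAD and blue points NC libraries, open points SNU-449 and filled points HepG2, and short lines are means of 2. AREG in HepG2 cytoplasm had 17.0 and 19.4 CPM with siPANAD, against 135.1 and 122.6 CPM with NC.

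ADAM17, on chromosome 2 at 9488486 to 9556732, minus strand, helped to choose these genes, and its values are descriptions in all comparisons. In SNU-449 the cytoplasmic siPANAD libraries had 3.33 and 3.51 CPM, against 11.1 and 10.4 CPM with NC (log2 fold change -1.65, SE 0.19). In the nucleus the siPANAD libraries had 20.2 and 20.9 CPM and the NC libraries 19.6 and 25.03 CPM, which overlapped (log2 fold change -0.12, SE 0.13). The SNU-449 transcript was low in the siPANAD cytoplasm with no comparable difference in the nucleus.

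ADAM17 in HepG2 was low in both fractions and lower in the cytoplasm. The cytoplasmic siPANAD libraries had 9.36 and 8.86 CPM, against 65.1 and 54.2 CPM with NC (log2 fold change -2.71, SE 0.16). The nuclear siPANAD libraries had 25.4 and 22.2 CPM, against 54.5 and 47.4 CPM with NC (log2 fold change -1.10). No groups overlapped in HepG2.

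The ADAM17 nucleus to cytoplasm ratio of TMM-normalised CPM was 6.01 with siPANAD and 2.06 with NC in SNU-449. In HepG2 the ratio was 2.61 with siPANAD and 0.856 with NC. On the log2 scale the ratio was 1.53 higher with siPANAD in SNU-449 (SE 0.23) and 1.61 higher in HepG2. ADAM10, the other sheddase, had a ratio of 1.52 with siPANAD and 1.51 with NC in SNU-449, and of 1.36 with siPANAD and 0.943 with NC in HepG2. The equal log2 falls of ADAM10 in the 2 SNU-449 fractions thus left its ratio where it was, while that of ADAM17 was about as much higher in one line as in the other.

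Of the exonic bases of ADAM17, 13.6% lie opposite other genes, among them IAH1, and the strand setting of the counting is not given in the sources used here. IAH1 fell in SNU-449 cytoplasm (log2 fold change -0.90) and nucleus (-0.68), and had log2 fold changes of -0.69 in HepG2 cytoplasm and -0.70 in HepG2 nucleus. Its own shift of the nucleus to cytoplasm ratio was 0.23 in SNU-449 and -0.01 in HepG2. ERBB2 shares 7.41% of its exonic bases with genes on the opposite strand, EGFR 1.49% and ADAM10 0.841%, and the 5 ligands share none.

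**Figure D2:**
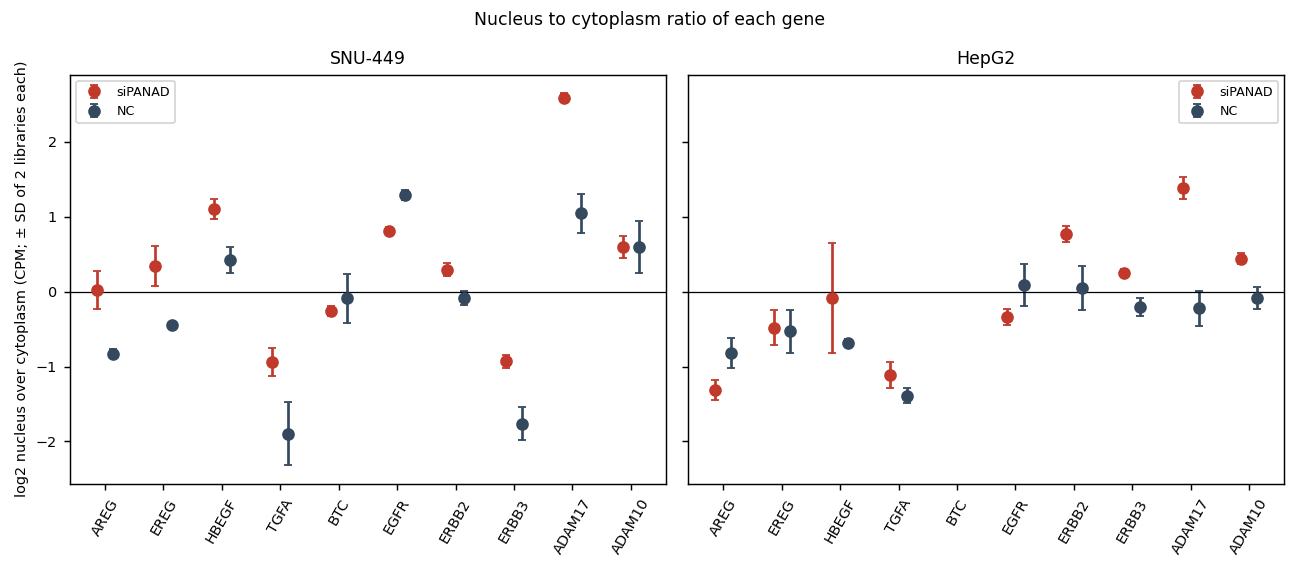
Nucleus to cytoplasm ratio of TMM-normalised CPM for each member with siPANAD (red) and NC (blue), in SNU-449 and HepG2, on a log2 axis with bars of 1 SD. The ADAM17 ratio was 6.01 with siPANAD and 2.06 with NC in SNU-449, while the ADAM10 ratio was 1.52 with siPANAD and 1.51 with NC.

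The other members' ratios are descriptions too, since the shift of the ratio was used to choose the genes. In SNU-449 the ratio was higher with siPANAD for TGFA (0.520 against 0.269 with NC), AREG (1.02 against 0.562), EREG (1.27 against 0.735), HBEGF (2.15 against 1.34), ERBB3 (0.524 against 0.294) and ERBB2 (1.23 against 0.942). It was lower for EGFR (1.75 with siPANAD against 2.44 with NC). Past the adjusted threshold were 7 of 10 members in SNU-449, 6 higher and 1 lower (6 of 9 without ADAM17, 5 higher and 1 lower), where 20.2% of all genes passed, 9.69% higher and 10.5% lower. In HepG2 2 of 9 passed, both higher (1 of 8 without ADAM17), where 9.89% of all genes did, 4.91% higher and 4.98% lower. The HepG2 pair was ADAM17 and ERBB2, whose ratio was 1.70 with siPANAD and 1.03 with NC. That count of 2 was 1 without the HepG2 nucleus NC replicate 1 library or the nucleus siPANAD replicate 2 library, and 5 without the cytoplasm NC replicate 1 library. Over all genes the HepG2 count was 1730, against 1010 and 1077 without either cytoplasm siPANAD library and 1057 and 841 without either nucleus siPANAD library. In SNU-449 it was 3614, against 2392 without the nucleus siPANAD replicate 2 library. Nothing is read from these counts, since the comparison chose the genes.

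HepG2 showed larger differences between siPANAD and NC for 3 of the ligands, given here as descriptions because they belong to the comparison that selected AREG. AREG had 7.31 and 7.32 CPM in HepG2 nucleus with siPANAD, against 79.3 and 66.8 CPM with NC (log2 fold change -3.32, SE 0.15). In HepG2 cytoplasm it had 17.0 and 19.4 CPM with siPANAD, against 135.1 and 122.6 CPM with NC (log2 fold change -2.82, SE 0.14). AREG stood high in each NC library and low in each siPANAD library of this line.

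EREG in HepG2 had 7.92 and 7.05 CPM in the nucleus with siPANAD, against 59.8 and 47.2 CPM with NC (log2 fold change -2.83, SE 0.16). In the cytoplasm EREG had 9.44 and 11.5 CPM with siPANAD, against 82.9 and 71.1 CPM with NC (log2 fold change -2.87, SE 0.16). HBEGF had 1.62 and 1.08 CPM in HepG2 nucleus with siPANAD, against 6.35 and 6.58 CPM with NC (log2 fold change -2.24, SE 0.24). In these 3 ligands the siPANAD and NC libraries did not overlap in either HepG2 fraction. The share of all genes without overlap was not counted, so a lack of overlap, wherever given, only describes the libraries. In the cytoplasm HBEGF had 1.04 and 1.88 CPM with siPANAD, against 10.6 and 10.2 CPM with NC (log2 fold change -2.82, SE 0.26). TGFA in HepG2 differed less, with 10.6 and 11.6 CPM in the nucleus with siPANAD against 18.9 and 20.7 CPM with NC (log2 fold change -0.84). In the cytoplasm TGFA had 22.3 and 25.8 CPM with siPANAD, against 52.8 and 50.9 CPM with NC (log2 fold change -1.11).

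The HepG2 receptors and ADAM10 had smaller log2 fold changes than AREG, EREG and HBEGF. ERBB3 had 309 and 323.8 CPM in the nucleus with siPANAD against 365.1 and 355.8 CPM with NC, and 263.7 and 270.3 CPM in the cytoplasm with siPANAD against 439.9 and 391.4 CPM with NC. ERBB2 was the 1 member higher in HepG2 nucleus, with 233.5 and 258.9 CPM with siPANAD against 145.6 and 162.1 CPM with NC (log2 fold change 0.68). In the cytoplasm ERBB2 had 145.5 and 143.9 CPM with siPANAD, inside the NC libraries at 169.7 and 130.4 CPM. EGFR had 32.2 and 30.1 CPM in HepG2 nucleus with siPANAD, against 49.96 and 40.8 CPM with NC, and overlapped in the cytoplasm with 37.7 and 40.9 CPM with siPANAD and 46.4 and 38.8 CPM with NC. ADAM10 had 60.8 and 57.3 CPM in the nucleus with siPANAD against 87.5 and 80.6 CPM with NC, and 42.6 and 44.5 CPM in the cytoplasm with siPANAD against 83.8 and 94.6 CPM with NC. BTC was not tested in HepG2, where its 8 libraries held 0 to 2 counts. Past the adjusted threshold were 8 of 9 members in HepG2 nucleus, 7 lower and 1 higher (5 lower and 1 higher of 7 without AREG, ADAM17 and BTC), where 45.6% of all genes passed. In HepG2 cytoplasm 7 of 9 passed, all lower (5 of those 7), where 47.9% of all genes did. These counts only describe the comparison that chose the genes.

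EREG and AREG are neighbours on chromosome 4. EREG spans 74365143 to 74388751 and AREG 74445134 to 74455009, both on the plus strand with 56382 bases between them. BTC follows on the minus strand at 74744759 to 74794686, 289749 bases after AREG. EPGN, the ligand gene before EREG at 74308473 to 74315307, averaged at most 0.919 CPM in any group. A rule of likeness was applied to AREG and to ADAM17. Over 15016 genes, the 3 whose 4 log2 fold changes (2 lines, 2 fractions) lay nearest to those of AREG were EREG, the immediate-early transcription factor EGR1 and LOXL2, an enzyme that cross-links collagen. Their root mean square differences from AREG were 0.25, 0.29 and 0.34 on the log2 scale. The nearest to ADAM17 were KIF26B, a kinesin family member (0.23), ITPRIPL2 (0.31) and the transcriptional repressor HIC1 (0.34).

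The promoters of the neighbours AREG and EREG, and that of ADAM17, are shown so that the sequences before the genes the results turn on can be compared. Each is the 250 bases before the RefSeq start (GRCh38.p14), 5′ to 3′ on the gene's strand, with capitals marking TGACGTCA, the cyclic AMP response element, its first part TGACG alone, and TATAAA.
AREG, chr4:74444886-74445135, plus strand: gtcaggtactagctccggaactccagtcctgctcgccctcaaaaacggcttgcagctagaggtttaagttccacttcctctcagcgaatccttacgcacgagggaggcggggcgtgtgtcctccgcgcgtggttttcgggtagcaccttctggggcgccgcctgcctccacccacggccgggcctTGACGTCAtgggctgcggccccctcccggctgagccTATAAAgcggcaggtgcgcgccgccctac
EREG, chr4:74364895-74365144, plus strand: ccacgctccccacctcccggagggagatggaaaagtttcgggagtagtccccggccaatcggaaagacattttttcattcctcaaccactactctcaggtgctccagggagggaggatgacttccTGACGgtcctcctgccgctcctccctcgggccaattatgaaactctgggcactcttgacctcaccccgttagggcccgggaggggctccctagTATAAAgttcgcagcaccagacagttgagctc
ADAM17, chr2:9555831-9556080, minus strand: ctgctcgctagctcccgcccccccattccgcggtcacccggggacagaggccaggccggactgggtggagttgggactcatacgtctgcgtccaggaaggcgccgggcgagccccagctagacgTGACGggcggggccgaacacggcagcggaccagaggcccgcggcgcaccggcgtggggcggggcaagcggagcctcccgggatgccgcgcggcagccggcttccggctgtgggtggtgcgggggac
In AREG the full element lay 65 bases and TATAAA 29 bases upstream of the start. EREG had TGACG at 125 and TATAAA at 32 bases upstream, and ADAM17 had TGACG at 126 bases upstream and no TATAAA. GENCODE 29 starts ADAM17 at 9556732 on the minus strand, so its window, set by the RefSeq start, lies inside the GENCODE gene. Of the other members, TGFA held TGACG at 154 and ADAM10 at 146 bases upstream, while the HBEGF window held none of the 4 motifs searched. The TGFA match was at 1 of its 2 starts. The fourth motif, TGANTCA, was found in ERBB2 and at the second of the 2 EGFR starts, which also held TATAAA at 146 and 36 bases upstream. Both strands were searched, and every TGACGTCA also counts as TGACG. Of 35116 promoters of the same length, 1.65% held TGACGTCA, 21.2% TGACG, 10.7% TATAAA and 6.57% TGANTCA. Promoters of 9 of the 10 members were in the table, without ERBB3, and a match describes letters and not binding.

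In NC cells of both lines, most ligand transcripts leaned to the cytoplasm on the TMM scale, which is relative to the typical gene. The lean therefore does not locate the transcript. On CPM before TMM, SNU-449 EREG had 49.3 and 48.75 in the nucleus against 37.6 and 36.5 in the cytoplasm. AREG had 3.56 and 3.45 against 3.43 and 3.49, and TGFA 4.97 and 3.96 against 7.85 and 10.7. The folds that follow are on the TMM scale. In SNU-449, TGFA was 3.75-fold lower in the nucleus than in the cytoplasm, AREG 1.78-fold lower and EREG 1.36-fold lower, while HBEGF was 1.34-fold higher in the nucleus. EGFR was 2.45-fold higher in the SNU-449 nucleus and ERBB3 3.38-fold lower, and ADAM10 was higher there by a log2 fold change of 0.59. These 7 members passed the test (edgeR adjusted p between 1.24e-11 for TGFA and 0.000698 for AREG among the ligands, 2.64e-15 for EGFR, 5.08e-05 for ADAM10 and 2.02e-15 for ERBB3). ERBB2 (log2 fold change -0.09) and BTC (-0.10) did not pass. In this contrast 79.8% of all genes passed, 43.5% higher and 36.2% lower in the nucleus, so that 7 of 9 lay near the background. ADAM17, described only, had a log2 ratio of 1.05.

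In HepG2 with NC, TGFA was 2.62-fold, HBEGF 1.60-fold and EREG 1.44-fold lower in the nucleus than in the cytoplasm. These 3 passed the edgeR test (adjusted p = 5.99e-10, 0.00318 and 0.00129 in that order). EGFR (log2 fold change 0.10), ERBB2 (0.04), ERBB3 (-0.21) and ADAM10 (-0.09) did not pass, where 77.1% of all genes did, 39.4% higher and 37.7% lower. HBEGF leaned to the nucleus in SNU-449 and to the cytoplasm in HepG2 on the TMM scale, and that difference between lines was not tested. On CPM before TMM, HepG2 HBEGF had 7.94 and 7.95 in the nucleus against 8.24 and 8.31 in the cytoplasm. EREG had 74.8 and 56.9 against 64.65 and 58.0, and TGFA 23.65 and 24.9 against 41.2 and 41.5. AREG had a log2 ratio of -0.82 and ADAM17 of -0.22, both described only.

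Levels of most members differed between the lines. In the cytoplasm of NC cells, SNU-449 had 61.0 and 71.6 CPM of HBEGF, against 10.7 and 10.4 CPM in HepG2, on the scale of the fit over all 16 libraries (6.31-fold higher, edgeR adjusted p = 2.04e-22). In the nucleus HBEGF was 13.8-fold higher in SNU-449 (edgeR adjusted p = 6.18e-28). EGFR was 1.61-fold higher in SNU-449 cytoplasm and 3.74-fold higher in the nucleus (edgeR adjusted p = 2e-06 and 1.55e-19), and ERBB2 was 1.47-fold and 1.37-fold higher (6.56e-05 and 0.000748). SNU-449 was the line in which HBEGF, EGFR and ERBB2 stood higher.

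ERBB3 and TGFA were lower in SNU-449. ERBB3 had 39.5 and 38.1 CPM in SNU-449 cytoplasm, against 445.5 and 398 CPM in HepG2 (10.9-fold lower, edgeR adjusted p = 1.38e-28), and was 31.3-fold lower in the nucleus (1.18e-33). TGFA had 10.4 and 15.1 CPM in SNU-449 cytoplasm, against 53.5 and 51.7 CPM in HepG2 (4.13-fold lower, edgeR adjusted p = 5.01e-17), and was 5.81-fold lower in the nucleus (2.15e-18). EREG was 1.54-fold lower in SNU-449 cytoplasm and 1.43-fold lower in the nucleus (edgeR adjusted p = 2.72e-05 and 0.000334).

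BTC was found in SNU-449 and was at 0 in the HepG2 NC libraries. It was at least 6.91-fold higher in SNU-449 cytoplasm and at least 10.6-fold higher in the nucleus, against a limit of 3 counts per HepG2 library on CPM before TMM. ADAM10 was 1.44-fold higher in the SNU-449 nucleus (edgeR adjusted p = 0.000161). In the cytoplasm it did not pass (log2 fold change -0.18, edgeR adjusted p = 0.178), but did so without the SNU-449 cytoplasm NC replicate 1 library, at -0.39. AREG, described only, had 4.55 and 4.90 CPM in SNU-449 cytoplasm, against 136.8 and 124.6 CPM in HepG2, and ADAM17 had 10.9 and 10.6 CPM against 65.9 and 55.1 CPM. Of the 7 members other than AREG, ADAM17 and BTC, 3 were higher in SNU-449 cytoplasm, 3 lower and 1 not past the threshold, where 34.3% of all genes were higher and 36.9% lower, 71.2% in all. In the nucleus 4 were higher and 3 lower, where 39.1% of all genes were higher and 36.5% lower, 75.5% in all. Most genes differed between the lines, and the members' counts lay near that background. Growth media differed between the lines as well, RPMI for SNU-449 and DMEM for HepG2, and medium and line cannot be told apart.

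Per kilobase of exon, HBEGF led in SNU-449 cytoplasm with NC at 21.9 ± 1.97 CPM per kb (SD, n = 2), next to ERBB2 at 21.6 ± 1.37, and the 2 overlapped. EREG followed at 8.84 ± 0.0163, then EGFR at 5.52 ± 0.0962, ADAM10 at 4.94 ± 1.03 and ERBB3 at 4.29 ± 0.211 CPM per kb. The wide spread of ADAM10 reached both EGFR and ERBB3, which did not overlap each other. AREG at 2.86 ± 0.0863 and TGFA at 2.56 ± 0.606 did not differ beyond their spread, and ADAM17 at 0.9996 ± 0.0430 and BTC at 0.565 ± 0.122 CPM per kb came last. In HepG2 cytoplasm with NC, AREG led at 78.2 ± 5.35 CPM per kb, followed by ERBB3 at 46.0 ± 3.78. ERBB2 at 14.5 ± 2.69 and EREG at 13.5 ± 1.45 overlapped, and TGFA had 10.4 ± 0.269. ADAM17 at 5.55 ± 0.714 and ADAM10 at 5.52 ± 0.470 were alike within their spread, as were HBEGF at 3.44 ± 0.0877 and EGFR at 3.40 ± 0.431 CPM per kb. The lengths join all annotated exons of a gene, so isoforms of other length shift these values.

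In the joint fit, the siPANAD log2 fold change differed between the lines for EREG and HBEGF. The gene set was chosen partly by HepG2 values. The log2 fold change of EREG was 1.80 less negative in SNU-449 than in HepG2 cytoplasm (SE 0.20, edgeR adjusted p = 3.24e-09) and 2.57 less negative in the nucleus (SE 0.19, edgeR adjusted p = 2.67e-14). For HBEGF the difference was 1.35 in the cytoplasm (SE 0.28, edgeR adjusted p = 0.000278) and 1.49 in the nucleus (SE 0.25, edgeR adjusted p = 7.7e-06). The HepG2 siPANAD libraries held few HBEGF counts, 13 and 24 in the cytoplasm and 40 and 24 in the nucleus. Over all alternatives the HBEGF difference ranged between 0.996 and 1.85 in the cytoplasm and between 1.23 and 1.82 in the nucleus. TGFA showed no such difference past the threshold, with -0.13 in the cytoplasm (95% interval -0.59 to 0.32) and 0.60 in the nucleus (0.10 to 1.10, edgeR adjusted p = 0.0925). The HepG2 values in these differences come from the comparison in which AREG was chosen, and AREG itself is left untested. EREG lay nearest to AREG in its 4 log2 fold changes (0.25). These adjusted p-values are therefore not independent of the choice of genes.

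Among the receptors, the nuclear log2 fold change of ERBB3 was 0.86 higher in SNU-449 than in HepG2 (SE 0.17, edgeR adjusted p = 0.000191) and that of ERBB2 0.73 lower (log2 difference -0.73, SE 0.17, edgeR adjusted p = 0.000927). ERBB3 rose in the SNU-449 nucleus, and ERBB2 was the higher one in the HepG2 nucleus. EGFR did not differ past the threshold in either fraction (0.14 in the nucleus and 0.16 in the cytoplasm). In the cytoplasm ERBB3 (0.46, edgeR adjusted p = 0.05) and ERBB2 (-0.41, edgeR adjusted p = 0.0859) lay close to the threshold. ERBB3 passed it without any 1 of HepG2 cytoplasm NC replicate 2, the 2 HepG2 nucleus NC and the 2 SNU-449 nucleus NC libraries, with values between 0.46 and 0.56, and ERBB2 without HepG2 cytoplasm NC replicate 1, at -0.61.

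ADAM10 had a nuclear log2 difference of -0.47 between SNU-449 and HepG2 (SE 0.17, edgeR adjusted p = 0.0438). This call was lost without either HepG2 cytoplasm siPANAD library, either HepG2 nucleus siPANAD library, HepG2 nucleus NC replicate 2, SNU-449 nucleus NC replicate 1 or either SNU-449 nucleus siPANAD library. It was also lost with DESeq2 (adjusted p = 0.0557) and with the replicate block (0.0567). Over all alternatives it ranged between -0.61 and -0.33, with adjusted p between 0.0176 and 0.272. In the cytoplasm the difference was 0.03 (95% interval -0.33 to 0.38). Of the 7 members other than AREG, ADAM17 and BTC, 2 passed in the cytoplasm, both with the higher value in SNU-449, where 9.17% of all 20459 genes were higher and 8.98% lower, 18.2% in all. In the nucleus 3 were higher and 2 lower, where 11.3% of all genes were higher and 9.61% lower, 20.9% in all. These comparisons share their NC libraries with those above, and their HepG2 part is the comparison that chose AREG.

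**Figure D3:**
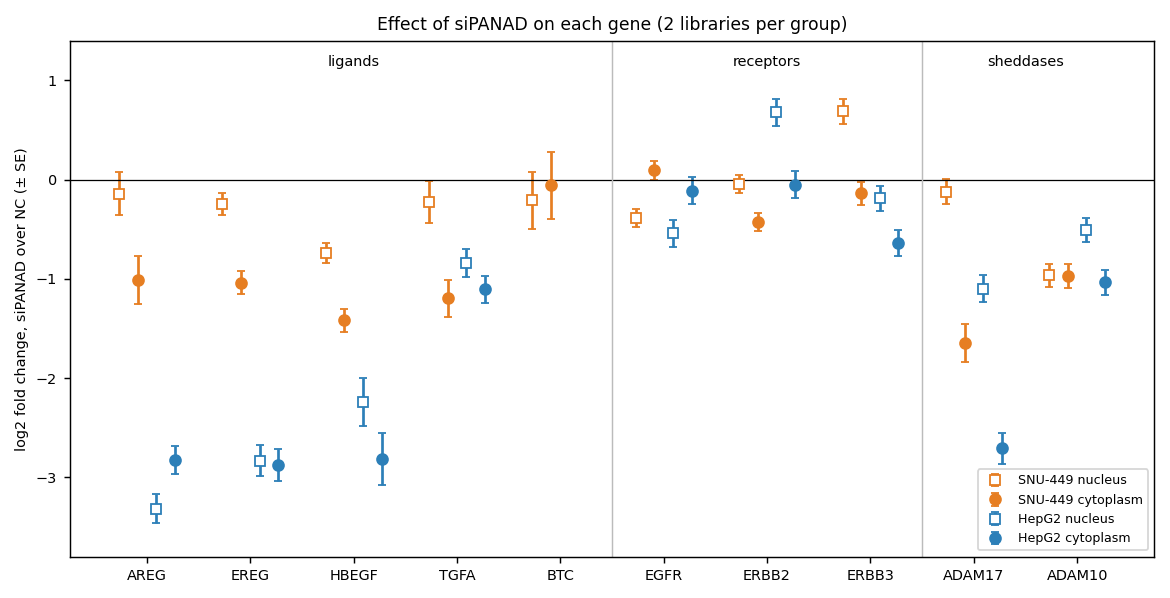
Log2 fold change of siPANAD over NC for each member in the nucleus and cytoplasm of SNU-449 and HepG2, with bars of 1 SE. In SNU-449, HBEGF (-0.74) and ADAM10 (-0.96) were lower in the nucleus, while AREG (-0.14), EREG (-0.25) and TGFA (-0.22) lay near 0 there.

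The rest of the pathway was read from 6 lists with 57 genes: other ligands, ERBB4, partners of the sheddases, other ADAM proteases, receptor inhibitors and signal relays. In SNU-449 cytoplasm 54 could be tested, of which 20 were lower, 6 higher and 28 not past the threshold, beside backgrounds of 20.1% and 19.6%. In SNU-449 nucleus 17 were lower, 10 higher and 27 not past it, beside 23.9% and 22.1%. The median log2 fold change of the 54 genes was -0.07 in the cytoplasm and -0.12 in the nucleus, against 0.04 and -0.01 over all genes.

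Among sheddase partners, 6 of 11 tested genes fell and 1 rose in SNU-449 cytoplasm, and 5 fell and 2 rose in the nucleus. Of all genes, 20.1% fell and 19.6% rose in the cytoplasm, and 23.9% fell and 22.1% rose in the nucleus. FURIN, the convertase that removes the inhibitory pro-domain of these proteases, fell 2.13-fold in the cytoplasm and 1.58-fold in the nucleus (edgeR adjusted p = 2.84e-08 and 4.51e-05). TSPAN14, a tetraspanin that escorts ADAM10 to the cell surface, fell 1.89-fold and 1.56-fold (1.51e-10 and 2.67e-07). TSPAN10, of the same tetraspanin group, rose 1.95-fold and 1.66-fold (0.000271 and 0.000741). NRG1, a ligand of ERBB3 and ERBB4, was the 1 gene of 4 tested other ligands to pass, and fell 1.80-fold in the cytoplasm and 1.86-fold in the nucleus (1.08e-07 and 8.49e-09). ERBB4 did not pass in either fraction. Of 5 other ADAM genes, ADAM19 fell 1.54-fold in the cytoplasm (0.0385) and ADAM8 rose 1.73-fold in the nucleus (5.87e-05).

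Of 10 genes listed as receptor inhibitors, 3 fell and 1 rose in SNU-449 cytoplasm, and 3 fell and 3 rose in the nucleus. Whether each listed gene, LRIG2 and LRIG3 among them, inhibits these receptors was not tested. Over all genes 39.7% passed in the cytoplasm and 46% in the nucleus, so the inhibitor counts lay near the background. LRIG1, a transmembrane protein that promotes receptor degradation, fell in the cytoplasm (log2 fold change -0.87, SE 0.18) and rose in the nucleus (0.90, SE 0.20). LRIG3, of the same family, fell in the cytoplasm (-0.68) and SOCS4, an adaptor for EGFR ubiquitination, rose there (0.87). CBLB, a ubiquitin ligase, and LRIG2 rose in the nucleus (0.74 and 0.61). Of the exonic bases of LRIG1 12.9% lie opposite another gene, and of LRIG2 12.5%, with the strand setting of the counting not given. Of 23 signal relays, 9 fell and 4 rose in the cytoplasm, where 20.1% of all genes fell and 19.6% rose. In the nucleus 8 relays fell and 4 rose, where 23.9% of all genes fell and 22.1% rose. The small GTPase NRAS fell 5.06-fold in the cytoplasm and 2.22-fold in the nucleus (edgeR adjusted p = 3.94e-19 and 1.66e-10), and HRAS fell 2.32-fold in the nucleus (5.43e-13). The transcription factor STAT3 fell 2.22-fold in the cytoplasm (6.61e-13), where PIK3R1, a regulatory subunit of PI3-kinase, rose 1.98-fold (0.00316). The adaptor SHC1 rose 2.01-fold in the nucleus (4.77e-11). It shares 7.72% of its exonic bases with a gene on its own strand and 7.51% with a gene on the opposite strand.

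**Figure D4:**
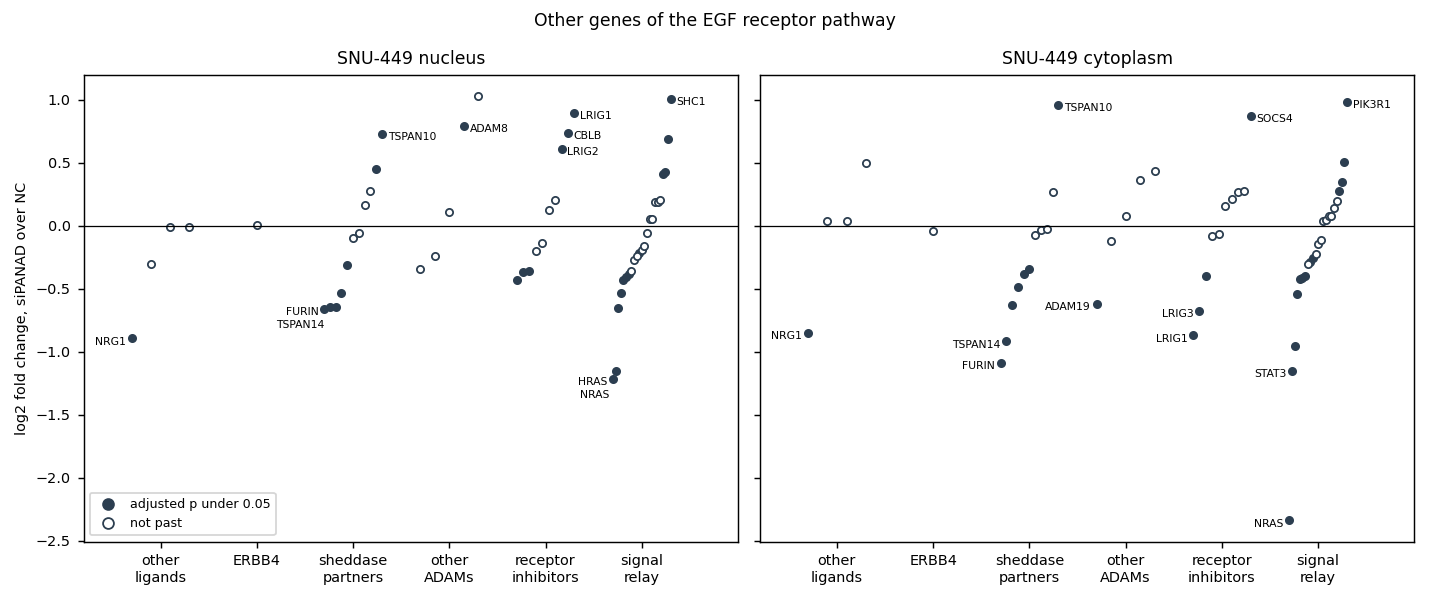
Log2 fold change of siPANAD over NC for the 54 tested pathway genes in SNU-449 nucleus and cytoplasm, by list, with filled points past an adjusted p of 0.05. NRAS in the cytoplasm (-2.34) lies lowest, and LRIG1 lies above 0 in the nucleus (0.90) and below it in the cytoplasm (-0.87).

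In HepG2, 49 of the 57 pathway genes could be tested, of which 20 were lower and 6 higher in the nucleus and 28 lower and 5 higher in the cytoplasm, where 24.2% of all genes were lower and 23.7% higher (23.6% and 22% in the nucleus). ERRFI1, a feedback inhibitor of EGFR, was named after its values were seen. It averaged 130.9 ± 10.5 CPM in HepG2 nucleus with siPANAD and 788.8 ± 26.4 CPM with NC (SD, n = 2 each). In HepG2 cytoplasm it averaged 172.9 ± 10.0 CPM with siPANAD and 794 ± 167 CPM with NC (log2 fold change -2.20). In SNU-449 its log2 fold change was -0.37 in the nucleus and -0.40 in the cytoplasm.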

How the data were processed

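The deposited values were raw counts of reads per gene, 1 table per line. Per the submitters' processing notes, Trim Galore 0.6.4, HISAT2 2.2.1 and hg38 were used; the counter, annotation release and strand setting are not given in the sources used here. Of 67938 gene identifiers, 61444 matched a symbol, and 1 entry broken over several lines (5 in the HepG2 table, 3 in the SNU-449 table) was left out. From the counts, edgeR 4.0.16 (R 4.3.3) quasi-likelihood tests were run per line on 8 libraries and, between lines, on 16, after filterByExpr (minimum count 10) and TMM scaling, with Benjamini-Hochberg adjustment at 0.05. Genes tested were 17499 in HepG2, 17895 in SNU-449 and 20459 in the joint fit. The fits were tested on simulated data. SE is the log2 fold change divided by the square root of F. CPM per kb used GENCODE 29 exon lengths. Members and lists were chosen with earlier results of these data known. Named genes were the members, C7orf25, up to 3 largest called changes per pathway list and SNU-449 fraction, and the 3 nearest genes to AREG and ADAM17. Others are markers, chromosomal neighbours or overlapping genes, single-gene lists (ERBB4) and ERRFI1, chosen after its values were seen. Alternatives were DESeq2 1.42.0, DESeq2-type size factors (RLE), no filter on low counts, a replicate block and leaving out each library. Replicate numbers were not shown to pair samples.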

Additional observations from a re-analysis of the deposited data

Results flagged for a closer look

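The effect of siPANAD differed between the lines, as SNU-449 minus HepG2 log2 fold changes in the joint edgeR fit, for 5 members. For EREG the difference was 1.80 in the cytoplasm and 2.57 in the nucleus. For HBEGF it was 1.35 in the cytoplasm and 1.49 in the nucleus. In the nucleus it was -0.73 for ERBB2, 0.86 for ERBB3 and -0.47 for ADAM10, a call that was lost with DESeq2, with the replicate block and without any 1 of 8 libraries. Groups of 2 libraries are too small to look for a single library that stands apart. The HepG2 part of each difference is the comparison that chose AREG, so these calls are not independent of the choice of genes. The causes of these differences were not tested.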

How the results depend on the processing

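Of 1712 member effects recomputed under alternatives, 1657 kept their direction and their side of the threshold. Untested effects counted among these where they moved by less than the spread of their replicates. Among tested effects 17 reversed, 10 lost a call and 12 gained one. The other 16 were untested effects that moved further or changed sign. Leaving out 1 library gave -0.29 to 0.0556 for ADAM17 in SNU-449 nucleus. In HepG2 cytoplasm it gave -0.24 to 0.0119 for EGFR and -0.23 to 0.14 for ERBB2. The ratio shift ran between -0.13 and 0.26 for EREG in HepG2. In SNU-449 it ran between -0.21 and 0.19 for ADAM10 and between -0.37 and 0.0382 for BTC. All changes of sign were in effects that did not pass the threshold. With RLE scaling and with DESeq2, ADAM10 in HepG2 NC nucleus against cytoplasm was 0.0039 and 0.0037, and its cytoplasmic line difference -0.0092 and -0.0094. Leaving out 1 library gave -0.24 to 0.17 for BTC in SNU-449 cytoplasm, -0.31 to 0.0014 for AREG in SNU-449 nucleus, and -0.34 to 0.0688 for BTC in SNU-449 NC nucleus against cytoplasm. In HepG2 NC nucleus against cytoplasm it gave -0.0706 to 0.22 for EGFR, -0.0873 to 0.22 for ERBB2 and -0.19 to 0.059 for ADAM10. Line differences spanned -0.37 to 0.17 for TGFA and -0.145 to 0.23 for ADAM10 in the cytoplasm and -0.0112 to 0.27 for EGFR in the nucleus. The HepG2 count of 2 members with a shifted nucleus to cytoplasm ratio was 4 with no filter, 4 with DESeq2 and 1 to 5 with 1 library left out. With the replicate block, ADAM10 lost its nuclear line difference (-0.47, adjusted p = 0.0567) and no other member call changed. DESeq2 lost it too (adjusted p = 0.0557). Correlations of same-numbered deviations ran between -0.0622 and 0.133, so the numbers were not shown to pair samples. With no filter EREG in SNU-449 nucleus passed (-0.29, adjusted p = 0.0383), as did ADAM10 between the lines in NC cytoplasm (-0.29). ERBB3 in the cytoplasmic line difference passed with no filter (0.54) and with DESeq2 (0.43). With 2 libraries per group, p-values rest on few degrees of freedom, and TMM cannot show a change shared by most genes. BTC and AREG in SNU-449, and HBEGF in HepG2 with siPANAD, rest on few counts. Where a library left out leaves a lone one, it is assumed to vary like the other groups.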
